A study of Mus musculus with 24 samples.

Results

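The effect of losing Cmtr2 on the mouse embryo transcriptome was compared between embryonic day 8.5 (E8.5) and embryonic day 9.5 (E9.5). The comparison used the 16 whole-embryo libraries of a series of 24, chosen by stage, tissue and genotype: 4 Cmtr2 knockout (KO) and 4 wild-type (WT) libraries at E8.5, and 4 KO and 4 WT libraries at E9.5. For every gene, the KO minus WT difference in log2 FPKM (fragments scaled by gene length and library size) at E8.5 was subtracted from the same difference at E9.5, and this difference of differences is called the interaction here. The knockout is constitutive, so every cell of a KO embryo carries it, and the WT controls are littermates. KO embryos looked like their littermates at E8.5 and were smaller at E9.5, per the series' design text, and the comparison asks which transcripts respond differently before and after that point. E8.5 embryos came from 2 litters and E9.5 embryos from 4. The labels do not tie libraries to litters or embryos, nor state which exons the allele lacks. The p-values therefore measure the spread between these libraries.

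CMTR2 is the methyltransferase that adds a methyl group to the ribose of the second transcribed nucleotide of capped RNAs, next to the nucleotide modified by its paralogue CMTR1. Embryos at these stages change from simple diffusion to a beating heart and circulating primitive red cells. Cells short of oxygen stabilise hypoxia-inducible factors, which raise genes for glycolysis, for mitochondrial removal and for collagen processing. The transcription factor p53 raises genes that stop the cell cycle or start cell death. Mitochondrial DNA encodes its own ribosomal RNAs, transfer RNAs and a small set of respiratory chain proteins.

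Libraries held 15555422 to 23379198 fragments, recovered from the FPKM values. Correlations between replicates of a group, across the 11595 genes tested, ran from 0.920 to 0.980. Levels are given as scaled FPKM, the deposited value divided by a median-of-ratios factor within its stage, and the stages were deposited and scaled as separate tables, so a level is compared within a stage. The genotype tag in the labels is the opposite of the title in 24 of 24 libraries. Groups follow the titles, and Cmtr2 levels go with the titles. Cmtr2 (GRCm38 chromosome 8, 110215665 to 110224486, plus strand) had a scaled FPKM of 6.46, 6.41, 6.15 and 5.60 in the E8.5 WT libraries and 0.776, 0.862, 0.689 and 0.489 in the KO libraries. At E9.5 the values were 3.82, 3.97, 3.60 and 2.64 in WT and 0.591, 0.418, 0.692 and 0.458 in KO. The genotypes did not overlap at either stage. KO libraries held 11.4% of the WT mean at E8.5 and 15.4% at E9.5 (exact two-sided permutation p = 0.0286 at each stage, the smallest that 4 against 4 libraries allow). The interaction of Cmtr2 was 0.53 on the log2 scale with limma (SE 0.25, 95% interval 0.0019 to 1.07, adjusted p = 0.903). It ran from 0.02 to 0.66 over other settings. The exact two-sided permutation p was 0.633 over 4900 arrangements of the genotype labels within stages. The arrangements mix KO and WT libraries, so the genotype effect itself widens their range. This p therefore cannot decide whether the loss differs between stages. Cmtr1 passed the filter on low values at E8.5 alone, where KO and WT libraries overlapped (1.08 to 1.43 against 0.446 to 1.24).

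The interaction was tested in 11595 genes with limma, and 6 passed a Benjamini-Hochberg adjusted p under 0.05 (0.0517% of the genes tested). In all 6 the KO minus WT difference was higher at E9.5 than at E8.5, and 0 were lower. At an unadjusted p under 0.05, 367 genes were higher at E9.5 (3.17%) and 205 were lower (1.77%). The share of 4.93% in all is close to what a threshold of 0.05 passes by chance when no gene differs. At the adjusted threshold, voom on the recovered fragments also called 0 lower. Lower calls numbered 1 on the TPM scale, with no filter, with array weights by library and without E9.5 WT replicate 4. The 6 genes are Bnip3 and Ndufa4l2, which respond to hypoxia, the mitochondrial isoleucine tRNA gene mt-Ti, and the processed pseudogenes Gm12191, Gm10221 and Gm4739. The pseudogenes fall outside the naming rule and were chosen after their values were seen. The call of mt-Ti rests on few fragments, and the pseudogenes share reads with near-identical genes.

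Taken stage by stage, 69 genes rose in KO embryos at E8.5 (0.528% of 13058 tested) and 56 fell (0.429%). At E9.5, 884 rose (7.35% of 12027 tested) and 753 fell (6.26%). The split of each count depended on the scaling: with values rescaled to TPM, the genotype effect in E8.5 embryos had 33 risen and 108 fallen genes, the genotype effect in E9.5 embryos 132 and 3113, and the stage by genotype interaction in embryos 4 higher and 1 lower, while the median interaction of all genes was -0.23. Among the 11595 genes tested at both stages, 114 were called at E8.5 and 1605 at E9.5. Both stages called 75, which is 65.8% of the E8.5 calls and 4.67% of the E9.5 calls, and 74 of the 75 moved in the same direction. Of the 1530 genes called at E9.5 and not at E8.5, 2 passed the test of the interaction itself. The same sign at E8.5 was held by 1446 of them, beside 7287 of 9951 genes called at neither stage. Of the 39 genes called at E8.5 and not at E9.5, 3 passed the test of the interaction. The number of calls at each stage depended on the model. The 125 calls at E8.5 were 34 to 79 with 1 E8.5 library left out, 1261 with the replicate number as a block and 1652 with a term for replicates 1 and 2 against 3 and 4, while the 1637 calls at E9.5 were 146 with the block and 1132 with the term. With the term, the stages shared 413 of the genes tested at both, or 27.6% of the E8.5 and 37.4% of the E9.5 calls, so which stage had more calls depended on the model, and the interaction called 8. Across genes, the effects at the stages had a Pearson correlation of 0.59 and a Spearman correlation of 0.65, as a description over genes that are not independent. The median standard error (SE) of the interaction was 0.28, and in 69.4% of genes its 95% confidence interval lay between -1 and 1. The E9.5 count was 2737 without WT replicate 1, 96 without WT replicate 2 and 125 without WT replicate 3. It fell to 36 without WT replicates 1 and 3 and KO replicate 2. These 3 libraries were low in tail bud genes by the median log2 level relative to each gene's E9.5 mean (-0.95, -0.56 and -0.65). By the summed level of the list, KO replicate 2 (331) lay above WT replicate 2 (267). The interaction called 5 genes without those 3 libraries, all among the 6, and 3 without E8.5 KO replicates 1 and 2, which were low in red cell genes.

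**Figure D1:**
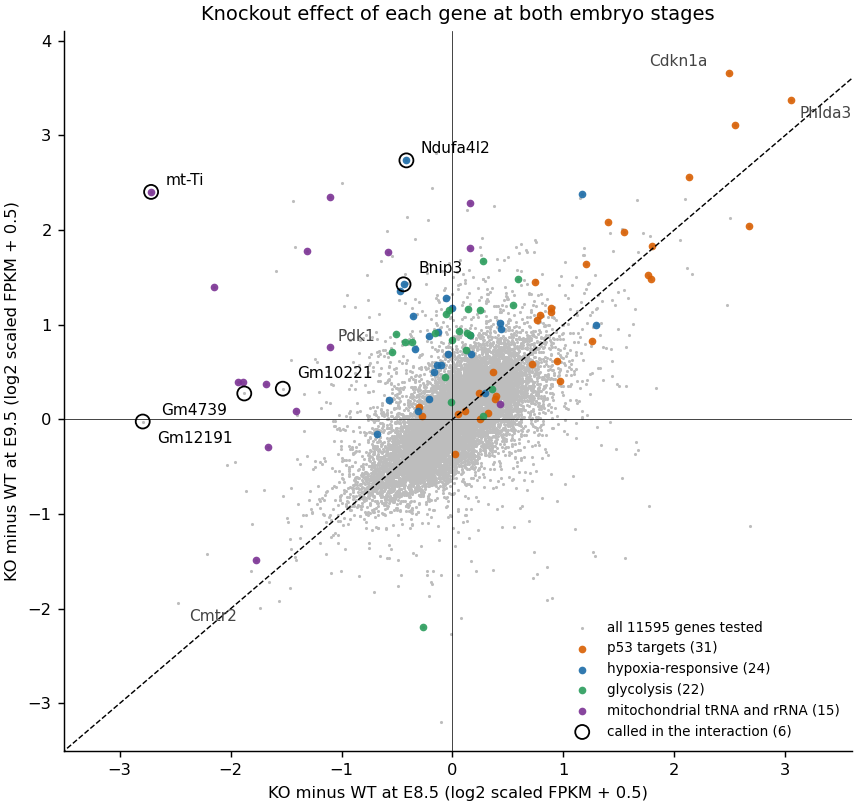
Each point is 1 of the 11595 genes tested, placed by its KO minus WT difference at E8.5 (x axis) and at E9.5 (y axis), both on the log2(scaled FPKM + 0.5) scale, and the dashed line marks equal effects. The 6 genes called in the interaction (circled) all lie above the line. The 31 p53 targets (orange) spread along the line with a median of 0.89 at E8.5 and 1.05 at E9.5. The hypoxia-responsive (blue) and glycolysis (green) genes have medians of -0.14 and 0.02 on the x axis, with members on both sides of 0. They lie mostly above 0 on the y axis. Most mitochondrial tRNA and rRNA genes (purple) lie left of 0.

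Bnip3 encodes a mitochondrial outer membrane protein that marks mitochondria for removal and is a classical target of hypoxia-inducible factors. Its scaled FPKM was 126, 92.4, 78.2 and 86.9 in the E8.5 WT libraries and 76.5, 60.5, 70.6 and 71.0 in the E8.5 KO libraries. All 4 KO libraries lay below all 4 WT libraries at E8.5, and the difference was not called (-0.44, SE 0.17, limma adjusted p = 0.140). At E9.5 the values were 15.4, 17.3, 14.5 and 19.0 in WT and 49.3, 37.6, 45.2 and 49.3 in KO. The order had turned: every E9.5 KO library lay above every WT library, and Bnip3 rose by 1.43 on the log2 scale (SE 0.14, adjusted p = 0.00146). The interaction was 1.87 (95% interval 1.42 to 2.32, adjusted p = 0.000732). It was called with every single library left out and in all 17 other settings of scaling, filter and model, and without E8.5 KO replicates 1 and 2 its adjusted p was 0.0115. In whole-embryo RNA, fewer cells of a type and less RNA per cell cannot be told apart.

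Ndufa4l2 encodes a mitochondrial protein related to a respiratory chain subunit and is strongly induced by low oxygen. Its scaled FPKM was 5.97, 3.47, 3.88 and 1.81 in E8.5 WT and 3.40, 2.08, 1.83 and 3.01 in E8.5 KO libraries, with overlapping groups. At E9.5 it was 0.822, 0.866, 1.21 and 2.24 in WT and 11.4, 6.04, 13.7 and 14.5 in KO. The lowest E9.5 KO library stood above the highest WT library, on 127 to 286 fragments per KO library against 16 to 43. Ndufa4l2 rose by 2.74 at E9.5 (SE 0.31, adjusted p = 0.00262), beside -0.41 (SE 0.32, adjusted p = 0.426) at E8.5. Its interaction of 3.15 (95% interval 2.18 to 4.13, adjusted p = 0.00870) was called with every single library left out. Its adjusted p was 0.0568 with voom on the recovered fragments and 0.0592 without E8.5 KO replicates 1 and 2.

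Pdk1, Stc2, Cdkn1a and Egln3 followed in the order of p among the named protein-coding genes, and none passed the threshold. Pdk1 encodes the kinase that closes pyruvate dehydrogenase and so turns pyruvate away from the mitochondria. Its scaled FPKM was 58.3, 52.7, 45.3 and 43.9 in E8.5 WT and 35.4, 28.3, 41.4 and 31.9 in E8.5 KO libraries. At E9.5 it was 11.4, 12.1, 9.53 and 11.9 in WT and 20.3, 13.5, 19.0 and 23.0 in KO. As with Bnip3, KO libraries lay wholly below WT at E8.5 and wholly above at E9.5, and the interaction was 1.25 (SE 0.23, adjusted p = 0.0678). It was called with FPKM as deposited (adjusted p = 0.0357), with a length trend removed (0.0306) and with array weights by library (0.0269). Stc2, a secreted glycoprotein of the stanniocalcin family, had 2.24, 1.73, 2.60 and 3.51 in E9.5 WT and 8.48, 5.19, 9.68 and 5.70 in E9.5 KO libraries, which did not overlap, and an interaction of 1.83 (SE 0.36, adjusted p = 0.0935). Egln3, a prolyl hydroxylase that acts on hypoxia-inducible factors, had an interaction of 1.45 (SE 0.33, adjusted p = 0.201).

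The promoters of Bnip3 and Pdk1 are shown because these genes reversed their order between the stages and are known targets of hypoxia-inducible factors. Bnip3 was taken by the rule for sequences, and Pdk1 was added after its values were seen. Each sequence is the RefSeq promoter window on GRCm38.p6, 250 bases before to 50 after the start site, on the strand of the gene. Capitals mark every match to the core of the hypoxia response element, ACGTG or GCGTG, on either strand, so that CACGT and CACGC are the same letters on the other strand and matches may overlap.
Bnip3 promoter, chr7:138909457-138909756, minus strand: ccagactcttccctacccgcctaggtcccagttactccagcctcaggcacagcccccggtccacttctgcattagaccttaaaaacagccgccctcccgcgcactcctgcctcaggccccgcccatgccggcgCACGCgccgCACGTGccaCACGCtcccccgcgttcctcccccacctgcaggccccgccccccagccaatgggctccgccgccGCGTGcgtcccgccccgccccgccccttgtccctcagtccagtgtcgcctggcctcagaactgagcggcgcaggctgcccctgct
Pdk1 promoter, chr2:71872974-71873273, plus strand: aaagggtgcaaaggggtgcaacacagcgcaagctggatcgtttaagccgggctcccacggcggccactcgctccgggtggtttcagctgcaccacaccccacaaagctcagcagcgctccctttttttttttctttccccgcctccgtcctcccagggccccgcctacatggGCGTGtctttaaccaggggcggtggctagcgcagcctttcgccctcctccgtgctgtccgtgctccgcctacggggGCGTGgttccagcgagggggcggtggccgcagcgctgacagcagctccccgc
The Bnip3 window held 5 matches, at -117, -108, -107, -99 and -35 from the start site, and the Pdk1 window held 2, at -78 and -2. At least 1 match was present in 14380 of 32851 promoters in the table (43.8%) and in 48 of 62 promoters of 40 tested hypoxia and glycolysis genes (77.4%). A match is a description of the letters and not a bound site.

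**Figure D2:**
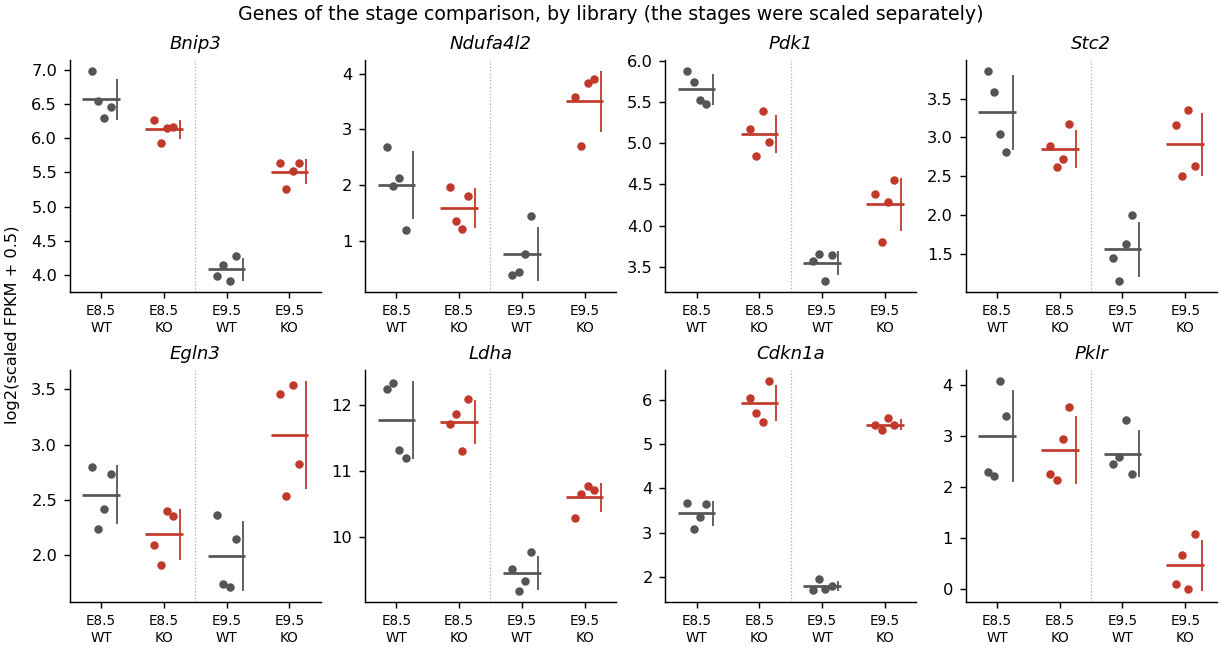
Each point is 1 library, on the log2(scaled FPKM + 0.5) scale, in grey for WT and red for KO, with the group mean as a horizontal bar and the SD (n = 4) as a vertical bar. The stages were scaled separately, so points are compared within a stage. For Bnip3 and Pdk1 the KO points lie below WT at E8.5 and above WT at E9.5, for Cdkn1a they lie above WT at both stages, and for Pklr they lie below WT at E9.5.

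Of 27 genes on a list of hypoxia-responsive genes outside glycolysis, 26 were found in the tables and 24 passed the filter. Their median KO minus WT difference was -0.14 at E8.5 and 0.89 at E9.5, and their median interaction was 0.73, beside -0.00 over all genes tested. At E8.5, 0 of 24 were called by limma, with 1 higher and 3 lower at an unadjusted p under 0.05. At E9.5, 16 rose and 0 fell, beside 7.35% and 6.26% of all genes. With the term for replicates 1 and 2 against 3 and 4, 1 rose and 2 fell at E8.5 and 14 rose at E9.5. Over all genes the term had 938 risen and 714 fallen of 13058 at E8.5 and 631 risen of 12027 at E9.5. With the replicate block 2 rose and 2 fell at E8.5 and 7 rose at E9.5. Over all genes the block had 714 risen and 547 fallen at E8.5 and 108 risen at E9.5. In the interaction, 2 of 24 were called, and 15 were higher and 0 lower at an unadjusted p under 0.05, or 62.5% against the 3.17% of all genes. KO libraries lay wholly above WT at E9.5 for 16 of the 24 (11.6% of all genes) and at E8.5 for 1 (8.73%), and wholly below at E8.5 for 3 (7.62%) and at E9.5 for 0 (11%). The members were listed with earlier results of these data known, so these counts describe the list.

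Several members encode proteins of mitochondria. Bnip3l, the relative of Bnip3, had an interaction of 0.78 with an E8.5 difference of -0.57 and an E9.5 difference of 0.21, neither of them called. Fam162a, a mitochondrial protein induced by hypoxia, rose at E9.5 from 68.2 to 92.2 in WT to 129.8 to 222 in KO (log2 1.18, adjusted p = 0.0112), beside -0.00 at E8.5. Higd1a, a small mitochondrial inner membrane protein, rose by 0.69 at E9.5, beside 0.17 at E8.5. Ak4, a mitochondrial adenylate kinase, rose by 0.88, beside -0.21.

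P4ha2 and P4ha1, the catalytic subunits of collagen prolyl 4-hydroxylase, rose by 1.29 and 0.57 (adjusted p = 0.0112 and 0.0393), beside -0.05 and -0.14 at E8.5. Plod2, a collagen lysyl hydroxylase, rose by 0.75, beside -0.34. The hydroxylases Egln3 and Egln1, which are part of the negative feedback on hypoxia-inducible factors, rose by 1.10 and 0.69, beside -0.36 and -0.04. Mif, a secreted cytokine, rose by 0.89, beside 0.16.

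Not all members were called at E9.5. Vegfa, the vascular growth factor, differed by 0.29 at E8.5 and 0.28 at E9.5, neither called, and its interaction was -0.01 (95% interval -0.56 to 0.54). Adm, the vasoactive peptide adrenomedullin, differed by 1.30 and 1.00 with an interaction SE of 1.18. Kdm3a, a histone demethylase, differed by -0.68 and -0.15, with all KO libraries below WT at E8.5. Ddit4, an inhibitor of mTORC1 signalling that responds to both hypoxia and p53, already had KO libraries above WT at E8.5 (22.4 to 37.4 against 9.19 to 19.9, 1.17, adjusted p = 0.0506). It rose by 2.38 at E9.5 (141, 84.5, 32.9 and 76.1 in KO against 9.11, 16.3, 13.7 and 17.9 in WT). The count at E9.5 was 2 of 24 without the 3 libraries low in tail genes, where the list median was 0.77, and 5 without WT replicate 2 and without WT replicate 3. The median interaction ran from 0.68 to 0.85 with single libraries left out and was 0.76 without those 3, and it was 0.59 with values rescaled to TPM and 0.81 after quantile normalization.

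Most glycolysis genes rose at E9.5. All 22 listed genes were tested, with a median difference of 0.02 at E8.5, 0.90 at E9.5 and a median interaction of 0.88. At E8.5, 0 were called (3 higher and 1 lower at an unadjusted p under 0.05), and at E9.5, 17 rose and 1 fell, beside 7.35% and 6.26% of all genes. With the term for replicates 1 and 2 against 3 and 4, 0 rose and 1 fell at E8.5 and 17 rose at E9.5. Over all genes the term had 938 risen and 714 fallen of 13058 at E8.5 and 631 risen of 12027 at E9.5. With the replicate block 0 were called at E8.5 and 4 rose at E9.5, where 108 of all genes rose. The interaction called 0, with 13 higher (3.17% of all genes) and 1 lower (1.77%) at an unadjusted p under 0.05, voom called 0 of them, and limma called Pdk1 (adjusted p = 0.0120) without E9.5 KO replicate 2. Ldha, lactate dehydrogenase A, had a scaled FPKM of 729, 575, 639 and 872 in E9.5 WT and 1243, 1596, 1739 and 1667 in E9.5 KO libraries, without overlap. At E8.5 its values were 4838, 5168, 2559 and 2354 in WT and 3357, 3728, 2530 and 4366 in KO, where WT replicates 1 and 2 stood apart from 3 and 4 and the genotypes overlapped. Its interaction was 1.19 (SE 0.36, adjusted p = 0.640).

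The 17 that rose at E9.5 included both glucose transporters, the lactate exporter and enzymes between them. Slc2a1 and Slc2a3, the glucose transporters, rose by 1.21 and 1.48, beside 0.55 and 0.60 at E8.5. Pfkp and Pfkl, forms of phosphofructokinase, rose by 0.91 and 1.15, beside -0.16 and 0.25. Tpi1, triose phosphate isomerase, rose by 1.11, beside -0.06. Slc16a3, which exports lactate, rose by 1.68, beside 0.28. Hk1 and Hk2, the hexokinases, differed by 0.19 and 0.45 at E9.5 and were not called. The E9.5 calls fell from 17 to 0 without the 3 libraries low in tail genes and to 4 without WT replicate 2 and without WT replicate 3. The list median at E9.5 lay between 0.78 and 0.98 with single libraries left out and was 0.89 without those 3.

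Pklr, a pyruvate kinase found in red cells and liver, was the 1 glycolysis gene that fell at E9.5. Its scaled FPKM was 4.99, 5.52, 9.44 and 4.24 in WT and 0.568, 1.08, 0.496 and 1.61 in KO, with no overlap (-2.20, adjusted p = 0.00747), and the fall was not called without the 3 libraries low in tail genes. At E8.5 the groups overlapped (4.13 to 16.5 in WT, 3.91 to 11.4 in KO). Its interaction of -1.93 (SE 0.58, adjusted p = 0.598) was not called. The markers of primitive red cells had a median difference of -0.57 at E8.5 and -1.01 at E9.5. Of these, 7 of 34 fell at E9.5 (6.26% of all genes) and 0 of 33 at E8.5 (0.429%). With the term for replicates 1 and 2 against 3 and 4, 10 of them fell at E8.5 and 5 at E9.5. Over all genes the term had 714 of 13058 and 501 of 12027 fallen. The interaction had 0 of 33 markers at an unadjusted p under 0.05. Their summed level was 6399 to 11440.5 in E9.5 WT and 1429 to 13493 in E9.5 KO libraries, and 3715 to 4748 against 623 to 7856 at E8.5. The part of red cell markers in the Pklr result was not tested.

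**Figure D3:**
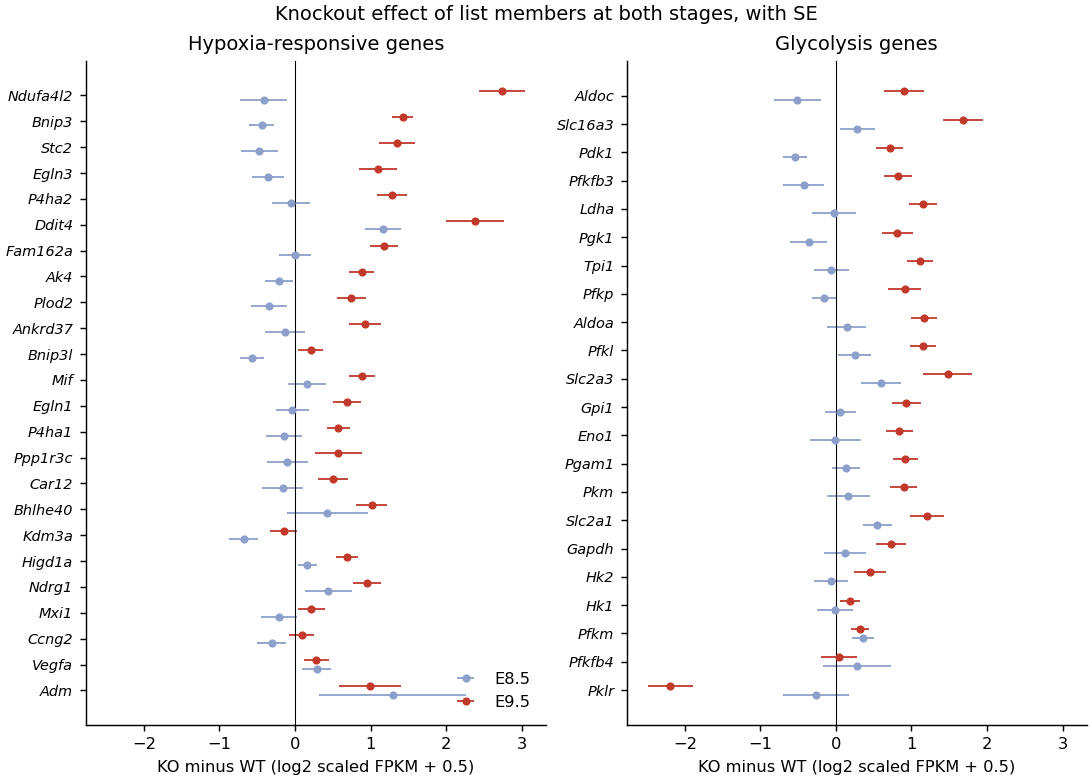
For each tested member of the hypoxia-responsive list (24 genes, left) and the glycolysis list (22 genes, right), the points give the KO minus WT difference on the log2(scaled FPKM + 0.5) scale at E8.5 (blue) and E9.5 (red), and the bars are the limma SE. Genes are ordered by their interaction. Most red points lie to the right of 0 and of their blue partners, with Pklr on the far left.

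Many p53 targets rose in KO embryos at both stages. Of 34 listed genes, 31 were tested in the interaction, with a median difference of 0.89 at E8.5 and 1.05 at E9.5. At E8.5, 14 of 32 rose (0.528% of all genes) and 0 fell, and at E9.5, 18 of 31 rose (7.35%) and 0 fell. With the term for replicates 1 and 2 against 3 and 4 the counts were 20 and 17. Over all genes the term had 938 of 13058 and 631 of 12027 risen. The median interaction was 0.04. The interaction called 0 of 31, with 2 higher and 0 lower at an unadjusted p under 0.05, which were Cdkn1a and Bax. KO libraries lay wholly above WT for 18 members at E8.5 (8.73% of all genes) and for 19 at E9.5 (11.6%). With values rescaled to TPM, the median interaction of the list was -0.16, against that of all genes at -0.23. The E8.5 count was 8 to 12 with 1 E8.5 library left out, lowest without WT replicate 1, and 7 without KO replicates 1 and 2, and the E9.5 count was 12 without the 3 libraries low in tail genes.

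Cdkn1a, the cell cycle inhibitor p21, had a scaled FPKM of 12.2, 7.91, 9.77 and 12 in E8.5 WT and 65.3, 51.9, 45.2 and 86.4 in E8.5 KO libraries. At E9.5 it was 2.76, 3.39, 2.77 and 2.95 in WT and 42.5, 39.2, 48.0 and 42.9 in KO. The genotypes were far apart at both stages, with rises of 2.49 and 3.66 (adjusted p = 0.000304 and 4.33e-07), and the interaction of 1.16 (95% interval 0.62 to 1.71) had an adjusted p of 0.201. Bax, which permeabilises the mitochondrial outer membrane, rose by 1.46 at E9.5, beside 0.75 at E8.5 (adjusted p = 0.0552). Phlda3, an inhibitor of Akt signalling, rose by 3.05 and 3.37, with an interaction interval of -0.26 to 0.90. Eda2r, a death receptor of the tumour necrosis factor family, rose by 2.55 and 3.11, and Ccng1, cyclin G1, by 2.13 and 2.56. Sesn2, a stress-induced inhibitor of mTORC1, rose by 1.80 and 1.84, and its interaction interval was -0.51 to 0.59. Mdm2, the p53 ubiquitin ligase, differed by 0.25 and -0.00 and was called at neither stage.

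Mitochondrial tRNA and rRNA genes had the highest median interaction of the 30 lists examined. Of 24 mitochondrial tRNA and rRNA genes, 15 were tested in the interaction, with a median of -1.41 at E8.5, 0.76 at E9.5 and 2.13 for the interaction. At E8.5, 4 fell (0.429% of all genes) and 0 rose, and at E9.5, 3 of 17 rose (7.35%) and 0 fell. The E8.5 count was 2 without WT replicate 2, 2 without KO replicate 4 and 1 without KO replicates 1 and 2. It was 8 with the term for replicates 1 and 2 against 3 and 4, which had 714 of 13058 genes fallen. The E9.5 count was 5 without WT replicate 1 and fell to 1 when the 3 libraries with few tail transcripts were omitted, and it was 2 without any 1 of WT replicates 2, 3 and 4 and KO replicates 2, 3 and 4. The interaction called mt-Ti, and 8 of 15 were higher (3.17% of all genes) and 0 lower at an unadjusted p under 0.05. Mitochondrial tRNAs are cut out of long transcripts of both strands, and strand use in the counting is not stated, so reads of a tRNA and of the opposite strand cannot be told apart. mt-Ti and mt-Tc, the genes with the lowest interaction p, are shown in the sense of the tRNA, from the GENCODE M21 transcripts on GRCm38, with the anticodon in capitals.
mt-Ti, chrM:3706-3774, plus strand: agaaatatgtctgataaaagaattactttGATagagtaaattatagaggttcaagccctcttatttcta
mt-Tc, chrM:5192-5257, minus strand: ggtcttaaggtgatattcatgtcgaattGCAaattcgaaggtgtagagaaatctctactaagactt

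mt-Ti, the isoleucine tRNA gene, had a scaled FPKM of 4.24, 4.99, 6.28 and 8.86 in E8.5 WT and 2.31, 0, 0.755 and 0 in E8.5 KO libraries. At E9.5 it was 5.71, 0.723, 5.89 and 3.30 in WT and 12, 59.6, 8.46 and 20.9 in KO. KO lay wholly below WT at E8.5 and wholly above it at E9.5. These values rest on 6 to 11 fragments per library in E8.5 WT, 0 to 3 in E8.5 KO, 1 to 8 in E9.5 WT and 8 to 79 in E9.5 KO. The fitted interaction of 5.12 (adjusted p = 0.0442) therefore depends on the pseudocount (6.57 with 0.1 in place of 0.5), and it was called in 4 of 16 fits with a library left out. mt-Tc, the cysteine tRNA gene, had 267, 263, 76.3 and 74.1 in E8.5 WT and 71.8, 58.2, 38.7 and 113 in E8.5 KO libraries, which overlapped. At E9.5 it had 74.2, 64.3, 46.1 and 40.6 in WT and 146, 431, 418 and 232 in KO, which did not. Its interaction was 3.45 (SE 0.64, adjusted p = 0.0678), and mt-Tp and mt-Th, for proline and histidine, had 1.87 and 2.28 (adjusted p = 0.216 and 0.344).

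Of the 13 mitochondrial mRNAs, 13 had a negative difference at E8.5 and 12 at E9.5, with medians of -0.71 at E8.5 and -0.52 at E9.5 and a median interaction of 0.55 that was 0.12 without the 3 libraries low in tail genes. At E8.5, 2 fell (0.429% of all genes). That count was 0 without KO replicates 1 and 2. It was 8 with the term for replicates 1 and 2 against 3 and 4, which had 714 of 13058 genes fallen. At E9.5, 5 fell (6.26% of all genes). The E9.5 count was 0 without the 3 libraries low in tail genes. It was also 0 without any 1 of WT replicates 2, 3 and 4 and KO replicates 2 and 4. mt-Nd4l, a subunit of respiratory complex I, fell at both, by 1.53 and 0.80 on the log2 scale, with an interaction of 0.72 (SE 0.29, adjusted p = 0.903). mt-Co1, the catalytic subunit of cytochrome c oxidase, differed by -0.47 at E8.5 (adjusted p = 0.239) and fell by 0.96 at E9.5 (adjusted p = 0.0385). The interaction called 0 of 13 with limma and with voom. At an unadjusted p under 0.05, 2 were higher (3.17% of all genes) and 0 lower (1.77%).

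The other 3 called genes are annotated as processed pseudogenes, copies of an mRNA in the genome, and had their high values in the E8.5 WT libraries. Gm12191 had a scaled FPKM of 73.0, 102, 77.8 and 125 in E8.5 WT and 13.5, 13.4, 12.7 and 12 in E8.5 KO libraries. At E9.5 it had 19.1, 18.8, 10.2 and 11.0 in WT and 10.2, 17.5, 12.4 and 17.0 in KO. It fell at E8.5 (-2.79, adjusted p = 8.43e-05) and overlapped between genotypes at E9.5 (-0.02), for an interaction of 2.77 (adjusted p = 0.000732). Gm10221 had 7.36 to 11.5 in E8.5 WT and 2.58 to 3.82 in E8.5 KO libraries, 3.29 to 4.19 in E9.5 WT and 3.84 to 5.74 in E9.5 KO, and an interaction of 1.85 (adjusted p = 0.00297). Gm4739 had 21.6 to 37.6, 6.24 to 10.5, 4.0 to 11.1 and 6.58 to 10.9 in the same order and an interaction of 2.15 (adjusted p = 0.0328), which was called in 6 of 16 fits with a library left out.

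Each of the 3 is nearly identical over its whole length to a protein-coding gene: Gm12191 to Rpl30 (99.7%), Gm10221 to Atp5l (100%) and Gm4739 to Hmgb2 (99.7%). Most of their reads cannot be told apart from those of the copies, so their values are uncertain. The parent genes had interactions of 0.10, -0.04 and 0.09 with overlapping genotypes at both stages (E8.5 differences 0.17, 0.22 and -0.21). Rpl30, a ribosomal protein, had 506, 631, 455 and 561 in E8.5 WT and 569, 651, 544 and 654 in E8.5 KO libraries. Over the 332 processed pseudogenes tested, the median interaction was 0.48, with 3 called and 75 higher and 3 lower at an unadjusted p under 0.05 (22.6% higher, against 3.17% of all genes). Over the 10757 protein-coding genes it was -0.01, with 262 higher and 171 lower. Across the 11595 genes tested, the interaction had a Spearman correlation of -0.31 with gene length. The correlation was -0.19 for the E8.5 and -0.40 for the E9.5 difference. All 6 calls were kept with a length trend removed. The part of gene length in the pseudogene median was not tested. The 6 calls thus hold 2 protein-coding genes, and with protein-coding genes tested alone the same 2 were called.

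**Figure D4:**
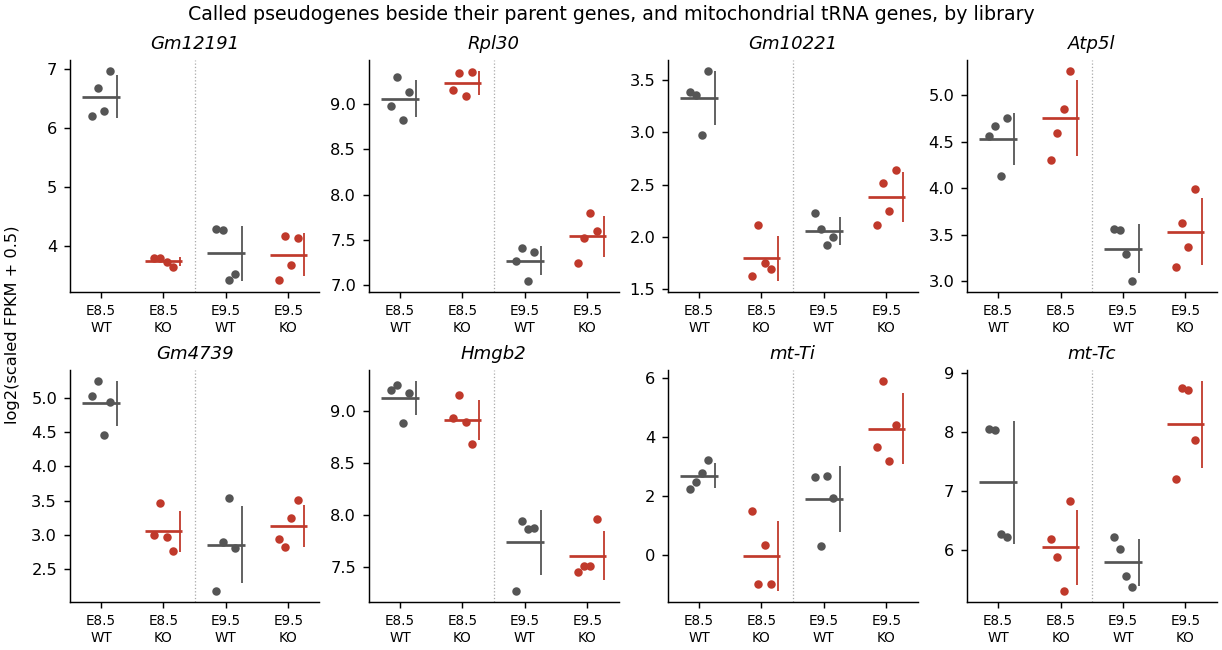
Points are single libraries on the log2(scaled FPKM + 0.5) scale, grey for WT and red for KO, with the group mean (horizontal bar) and SD (vertical bar, n = 4); the stages were scaled separately. The 3 called pseudogenes are high in the 4 E8.5 WT libraries and do not follow their parent genes Rpl30, Atp5l and Hmgb2, whose genotypes overlap. mt-Ti and mt-Tc have KO points below or among WT at E8.5 and above WT at E9.5.

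No gene had a lower interaction past the threshold. Among the named genes, the lowest p in this direction belonged to Mir343 and Snora17, which are small RNA genes with few fragments. Mir343 was at 0 in all 4 E8.5 WT libraries and had 2 to 8 fragments in the KO libraries. Snora17, a guide for pseudouridylation, had 26.9, 13.6, 23.1 and 15.5 in E9.5 WT and 6.29, 7.50, 5.53 and 4.20 in E9.5 KO libraries and fell at E9.5 (-1.64, adjusted p = 0.0103), beside -0.11 at E8.5. The 64 snoRNA genes tested had a median interaction of -0.70, with 0 higher and 5 lower at an unadjusted p under 0.05. The 33 miRNA genes had -0.77, with 0 and 5, beside 3.17% and 1.77% of all genes. Both classes varied within a genotype at E9.5. Relative to each gene's E9.5 mean, the median log2 level of snoRNA genes was -1.06 in WT replicate 1 and 0.71 in WT replicate 4. For miRNA genes it was -1.89 in KO replicate 3 and 0.57 in KO replicate 1.

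The named protein-coding genes with a negative interaction were led by Lrrn1. Lrrn1, a leucine-rich repeat membrane protein of the neural tube, had 11.2, 8.25, 11.9 and 3.34 in E9.5 WT and 2.60, 2.32, 1.58 and 1.63 in E9.5 KO libraries and 1.03 to 2.27 against 1.05 to 1.48 at E8.5. It fell at E9.5 (-1.74, adjusted p = 0.0204) with an interaction of -1.56 (adjusted p = 0.432). Fabp7, the fatty acid binding protein of radial glia, fell by 1.76 on the log2 scale at E9.5, beside -0.49 at E8.5 (interaction -1.26, adjusted p = 0.840). WT replicate 4 was the lowest E9.5 WT library for both genes, at 3.34 and 4.97. Barx1, a homeobox gene, and Rtn1, a neuronal reticulon, had interactions of -1.64 and -1.17 (adjusted p = 0.571 and 0.493) and were called at neither stage. Over the 26 tested neural progenitor and patterning genes the median interaction was -0.07, with 0 higher and 2 lower at an unadjusted p under 0.05. At E9.5, 7 of 35 fell, beside 6.26% of all genes.

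The remaining lists had no member called in the interaction. Ribosomal protein genes had a median of 0.18 at E8.5 and 0.51 at E9.5, with 75 of 79 interactions above 0 and a median of 0.31, but 0 were called and 0 were higher and 1, Rps10, was lower at an unadjusted p under 0.05. That median was 0.08 on the TPM scale and -0.01 after quantile normalization, so its direction depended on the scaling. Risen calls in this list numbered 24 of 79 in the E9.5 fit (7.35% of all genes). They numbered 0 without the 3 libraries low in tail genes, a fit that called 36 genes in all. The E9.5 median of the list was then 0.50. Mitosis genes had medians of -0.43 at E8.5 and -0.39 at E9.5 and of 0.10 for the interaction. At E9.5, 14 of 41 fell (6.26% of all genes) and at E8.5, 0 (0.429%). With the replicate block 0 fell at E9.5 and 10 at E8.5, beside 38 of 12027 and 547 of 13058 of all genes. The term for replicates 1 and 2 against 3 and 4 gave 9 and 5. Over all genes that term had 501 of 12027 and 714 of 13058 fallen. Genes of the nuclear-encoded respiratory chain had medians of 0.30 and 0.48 and an interaction of 0.14. Heat shock and unfolded protein genes had a median interaction of 0.31, with 4 of 25 higher at an unadjusted p under 0.05 (3.17% of all genes). Over other settings that median ran from 0.09 to 0.41 and the count from 0 to 6. Among the 4 were Manf (0.52) and Calr (0.47), which act in the endoplasmic reticulum and were chosen after their values were seen. In the gut epithelium list, 7 of 19 rose at E9.5 (7.35% of all genes) and 0 of 20 at E8.5 (0.528%). With the term for replicates 1 and 2 against 3 and 4 the counts were 6 and 7. Over all genes the term had 631 of 12027 and 938 of 13058 risen. The median interaction of the list was -0.02. Of this list, Trh, Krt19 and Krt18 were chosen after their values were seen. They rose at E9.5 by 1.82, 1.71 and 1.21, beside 0.25, 0.50 and 0.44 at E8.5. The list median was 0.44 at E8.5 and 0.48 at E9.5.

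Markers of heart muscle and tail bud showed wide spreads at E9.5. The 26 tested heart muscle genes had a median interaction of 1.19, with 0 called and 0 at an unadjusted p under 0.05. That median ran from -0.18 to 1.75 over other settings of scaling, filter, model and libraries, so its direction was not kept. The summed level of the heart muscle genes was 30.1 to 736 in E9.5 WT and 249 to 1057 in E9.5 KO libraries, against 521 to 1281 and 432 to 1166 at E8.5. Myl7, the atrial myosin light chain, was 2.58, 207, 5.16 and 223 in the E9.5 WT libraries. T, the gene of the tail bud and notochord, was 0.511, 14.2, 1.23 and 18.6 in E9.5 WT and 8.86, 0.990, 10.1 and 10.4 in E9.5 KO libraries, so WT replicates 1 and 3 and KO replicate 2 stood apart. At E8.5 it was 33.8 to 49.5 in WT and 25.2 to 41.1 in KO. The hypoxia-responsive and glycolysis medians of the interaction were 0.76 and 0.90 without those 3 libraries. Visceral endoderm markers summed to 2835 to 8701 in E8.5 WT and 7099 to 15157 in E8.5 KO libraries. At E9.5 they summed to 73.4 to 557 in WT and 168 to 959 in KO libraries. Their median interaction was -0.04. It ran from -1.27 to 0.69 over other settings, so its direction was not kept.

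**Figure D5:**
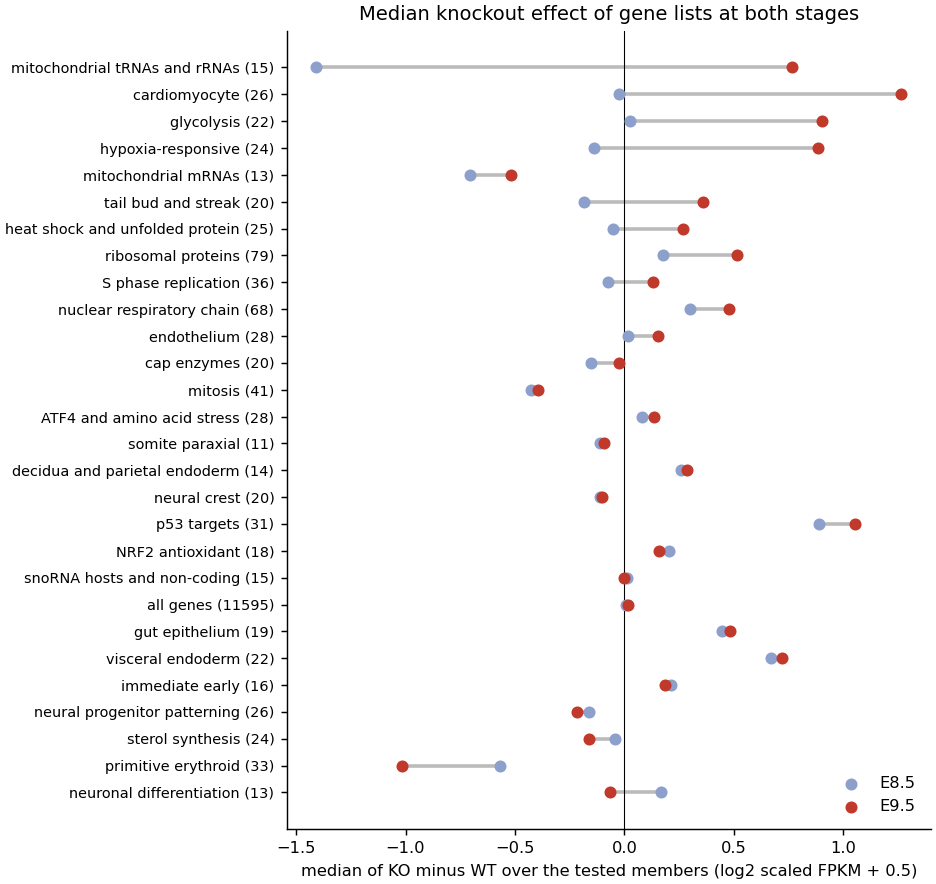
For each gene list with 10 or more tested members (number in brackets), the median KO minus WT difference at E8.5 (blue) and E9.5 (red) is shown on the log2(scaled FPKM + 0.5) scale, ordered by the median interaction. The longest lines belong to mitochondrial tRNAs and rRNAs, heart muscle, glycolysis and hypoxia-responsive genes, while p53 targets and mitosis genes lie away from 0 at both stages with short lines. The median interaction of the heart muscle genes ran from -0.18 to 1.75 over other settings.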

How the data were processed

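RNA of whole mouse embryos was sequenced in 16 libraries, 4 per genotype and stage. The authors deposited FPKM values per gene in 1 table per stage, and GRCm38, mm10 and DESeq2 are named per the submitters' processing notes; no aligner or counting program is stated there. TRIzol extraction, DNase treatment and a NEBNext Ultra kit were used, per the labels' protocols. The E8.5 FPKM values follow the mean transcript length and the E9.5 values the union of exons, as read from the deposited values. Low FPKM values came out as whole fragments within 0.02 in 97.6% to 98.6% of cases, which gave the depths. The E9.5 deposited values carry an additional library scaling, with recovered over effective depth of 0.944 to 0.996 in WT and 1.036 to 1.167 in KO.

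FPKM was scaled by median-of-ratios within each table and tested as log2(scaled FPKM + 0.5) with limma 3.58.1 (R 4.3.3, empirical Bayes with trend, Benjamini-Hochberg, called under 0.05), keeping genes whose FPKM reached 1 in 4 or more of a table's 8 libraries, and in both tables for the interaction. Fold changes on this scale understate low genes. Because the values are not counts, voom on recovered fragments is an alternative only. The code was checked on simulated data. Pseudogene copies were found with BLAST+ 2.17.0.

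The comparison and gene lists were chosen with earlier results of these data known. Named genes were Cmtr2, Cmtr1, a panel, the genes with standard symbols called in the interaction, filled to 6 per direction by smallest p, and up to 4 members with the smallest p of each of 10 lists; other list members named were chosen after their values were seen. Replicate numbers were not treated as pairs, since same-number libraries did not all deviate together, although 3 of 4 did at E8.5; fits with a replicate block or a term for replicates 1 and 2 against 3 and 4 are alternatives. Counts per list under these fits and with libraries left out were added after seeing the data. The 8 yolk sac libraries were not analysed here.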

Additional observations from a re-analysis of the deposited data

Results flagged for a closer look

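The 6 genes called in the test of the interaction itself stand here because their genotype effect differed between the stages. Their interactions were 1.87 for Bnip3, 3.15 for Ndufa4l2, 5.12 for mt-Ti, 2.77 for Gm12191, 1.85 for Gm10221 and 2.15 for Gm4739, on the log2 scale.

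In 9 of 288 groups of 4 libraries examined, 1 library lay far from the other 3 of its group; chance gives about 1 in 20. In the E9.5 WT group, replicate 1 had mt-Tp at 680 (next 328), replicate 4 had mt-Atp6 at 78.3 (next 58.7) and replicate 2 had Afp at 99.6 (next 15.5). In the E9.5 KO group, replicate 1 had mt-Nd4l at 5.39 (next 9.29) and Ndufa7 at 57.8 (next 86.4). KO replicate 2 had T at 0.990 (next 8.86) and Afp, a visceral endoderm gene, at 42.7 (next 5.02). At E8.5, WT replicate 2 had Snora17 at 18.2 (next 9.85) and WT replicate 4 had Cmtr1 at 0.446 (next 1.15). All values are scaled FPKM.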

How the results depend on the processing

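The stage by genotype interaction in embryos called 6 genes, and 3 with an FPKM minimum of 5, 10 with FPKM as deposited, 13 with array weights by library (12 higher, 1 lower), 2 with voom and 2 with protein-coding genes alone, a setting chosen after seeing the data. With single libraries left out it called 4 to 10, the most without E8.5 WT replicate 3. The genotype effect in E8.5 embryos, with 125 calls, gave 25 with no filter, 224 with a length trend removed, 1652 with a term for replicates 1 and 2 against 3 and 4, and 34 to 79 with single libraries left out. The genotype effect in E9.5 embryos, with 1637 calls, gave 112 with no filter, 3245 on the TPM scale (132 higher, 3113 lower), 935 with a length trend removed, 3498 with array weights by library, 36 without WT replicates 1 and 3 and KO replicate 2, and 96 to 2737 with single libraries left out: 2737 without WT1, 96 without WT2, 125 without WT3, 581 without WT4, and 208, 266 and 285 without KO2, KO3 and KO4. The cause was not tested.

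Bnip3 was called in all of these settings, and Gm12191 in all that tested it, which leaves out protein-coding genes alone. Gm10221 had an adjusted p of 0.0527 without the 3 libraries low in tail genes and 0.212 with voom. Adjusted p reached 0.116 for Gm4739 and 0.248 for mt-Ti. Cdkn1a was called without E8.5 KO replicate 4 (adjusted p = 0.0443) and with array weights by library (0.0335), and Lrrn1 without E9.5 WT replicate 4 (-1.94, adjusted p = 0.0331). The replicate block gave 5 calls in the interaction, 1261 at E8.5 and 146 at E9.5; same-number libraries correlated at 0.295, 0.412, 0.353 and 0.011 at E8.5 and at -0.011, -0.071, -0.212 and 0.156 at E9.5, so 3 of 4 pairs at E8.5 exceeded 0.1, each with its own number as best match, but not every pair did, and the block was kept as an alternative. No label says what a number marks. Depth limits mt-Ti and Mir343, which have few fragments.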
